A study of Homo sapiens with 8 samples.

Results

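All 8 RNA-seq libraries of the series entered a single contrast: the 4 libraries in which CYP1B1 had been manipulated were set against the 4 control libraries, with cell line as an additive term. The labels put each library on its side: every overexpression and hairpin library against every control. RKO and SW480 are established human colorectal cancer cell lines. The RKO libraries were 2 of the CYP1B1 overexpression genotype and 2 of the CYP1B1 normal control genotype; the SW480 libraries were 2 with a hairpin against CYP1B1 (shCYP1B1, CYP1B1 knockdown) and 2 with shNT, the CYP1B1 normal control of that line. All cultures grew in DMEM with fetal bovine serum, and the labels assign a CYP1B1 lentivirus to both lines. They do not say whether the RKO control received a virus, whether the cultures were clones or pools, or whether a group's 2 libraries came from independent cultures. The p-values therefore speak to scatter from library to library, possibly technical in origin. Knockdown rested on 1 hairpin. A gene that moves the same way in both lines does so although CYP1B1 was raised in RKO and lowered in SW480.

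CYP1B1 is a cytochrome P450 enzyme that oxidises oestrogens, polycyclic aromatic hydrocarbons and fatty acids, and its transcription is driven by the aryl hydrocarbon receptor. Raising it in a line with little of it and lowering it in another is a gain and loss design, in which a gene that follows the enzyme would move in opposite directions. Cytosolic chaperones are induced by the heat shock factors, enzymes of cholesterol synthesis by the sterol-regulated SREBP factors, and amino acid transporters and tRNA ligases by ATF4, the effector of the integrated stress response.

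The libraries held 31550173 to 34921085 counts each, and 14157 of 16829 genes passed the filter on low counts. Counts are given as CPM (counts scaled to library size, with TMM factors). Of the genes with at least 5 CPM in a group, 60 of 10272 differed by over 2-fold between the RKO CYP1B1 overexpression libraries, against 5 of 10303 between the RKO controls, 6 of 10922 between the shNT and 3 of 10953 between the shCYP1B1 libraries. The labelled tissue is colon. Of 14 colorectal epithelial markers, 13 were in the table, and their summed level was 251 to 298 CPM in RKO and 5075 to 5737 CPM in SW480. In RKO, EPCAM stood at 1.70 to 1.99 CPM and CDH1 at 0.143 to 0.239 CPM, while KRT20, CDX1 and LGALS4 had 0 counts. RKO did hold KRT18 at 175.8 to 189.5 CPM, KRT8 at 45.9 to 80.8 CPM and CDX2 at 23.1 to 25.7 CPM. In SW480, KRT8 stood at 2069 to 2524 CPM and EPCAM at 22.5 to 131 CPM. KRT20, CDX1 and LGALS4 were near absent in SW480 too, at or below 0.361 CPM. Of 22 markers of stromal, endothelial and immune cells, 14 had enough counts to be tested. Of these 1 rose over both lines, 4 were called up in SW480, and none was called in each line and over both. Over all genes 8.35% rose over both lines and 25.3% were called up in SW480. PTPRC stayed at or below 0.258 CPM in every library, and CD68 made up most of the sum in RKO, at 662 to 773 CPM. In SW480 CD68 went from 5.36 and 6.87 CPM with shNT to 22.5 and 24.4 CPM with shCYP1B1.

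CYP1B1 itself moved in opposite directions and was not called over both lines. It stood at 0.686 and 0.701 CPM in the RKO controls and at 437 and 519 CPM with overexpression. In SW480 it stood at 1.44 and 2.20 CPM with shNT and at 0.367 and 0.301 CPM with shCYP1B1. The log2 fold change was 9.42 in RKO and -2.44 in SW480, and 4.56 in the fit over both lines (SE 2.80, adjusted p = 0.28; adjusted p-values here are from the quasi-likelihood test of edgeR, adjusted over all genes tested). SW480 held 50 and 76 counts with shNT and 12 and 10 with shCYP1B1, so the fall there rests on few reads. The value over both lines was 1.33 and 1.37 without RKO control 1 or 2 and 6.67 to 6.91 without shNT library 2 or either shCYP1B1 library.

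Over both lines, 1182 genes (8.35% of those tested) were higher and 1150 (8.12%) lower in the manipulated libraries at an adjusted p of 0.05. A gene was taken as shared when it also passed in each line with the same sign, which held for 625 genes upward (4.41%) and 640 downward (4.52%). Calls in each line with the same sign, whatever the fit over both gave, numbered 635 upward (4.49%) and 654 downward (4.62%). In RKO 13.8% of genes were called in each direction, and in SW480 25.3%. The shared genes upward made up 31.9% of the RKO calls in that direction and 17.4% of the SW480 calls, and those downward 32.9% and 17.9%. Opposite movement was called for 489 genes (3.45%) that were up in RKO and down in SW480 and 444 (3.14%) the other way. Of the 2332 genes called over both lines, 1265 were called in each line, 932 in SW480 alone, 131 in RKO alone and 4 in neither, and 171 had estimates of opposite sign in the lines, so a call over both lines is not by itself a shared change. Across the 14157 genes the log2 fold changes of the lines had a Pearson correlation of 0.057 and a Spearman correlation of 0.072, given as a description: the lines share no library, and all values come from a single scaling.

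Most shared changes were small. The median size of the log2 fold change of shared genes was 0.47 in RKO and 0.57 in SW480, and 24 genes upward and 29 downward passed 2-fold in both lines. The change itself differed between lines for 2719 genes with the higher value in RKO (19.2%) and 2593 with the higher value in SW480 (18.3%). Its size differed for 157 shared genes upward and 167 downward, being larger in SW480 for 255 of them and in RKO for 69. The counts changed with the libraries kept. Shared counts fell without any single RKO control or SW480 library and rose without either overexpression library. Over both lines, 274 to 363 genes were higher and 255 to 332 lower without any single SW480 library, and 726 were lower without RKO control 2. Without RKO control 1 or 2, 345 and 262 genes were shared upward and 327 and 271 downward. Without shNT 1 or 2 the counts were 292 and 218 upward and 285 and 225 downward, and without shCYP1B1 1 or 2 they were 280 and 288 upward and 245 and 249 downward. For genes called with opposite signs the counts were 267 and 223 without RKO control 1, 216 and 208 without control 2, 996 and 941 without overexpression library 1, and 271 to 304 and 258 to 274 without a SW480 library. Of the shared genes, 161 upward and 164 downward passed in all 8 fits that left out a library.

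**Figure D1:**
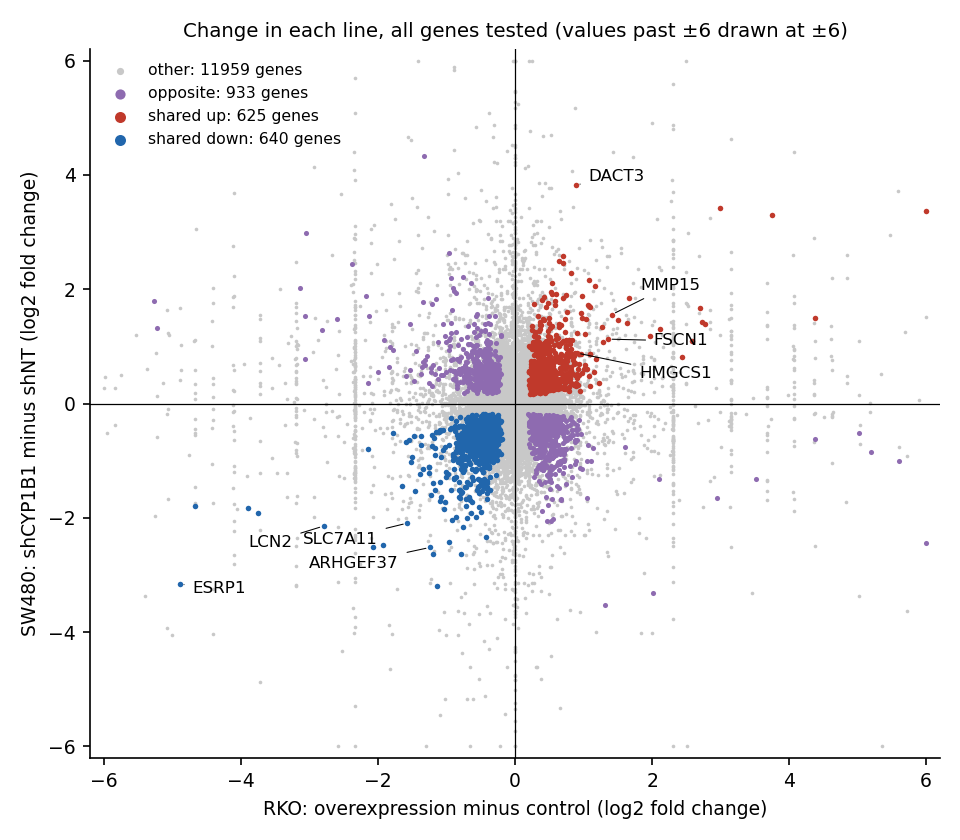
Log2 fold change of every gene tested in RKO (overexpression minus control, horizontal axis) and SW480 (shCYP1B1 minus shNT, vertical axis), with each point a gene. Red and blue points are the 625 and 640 genes called up or down in both lines and over both, purple points the 933 genes called in both with opposite signs, and columns of grey points on the horizontal axis are genes with very few RKO counts.

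The largest shared rises included MMP15, FSCN1, FHOD1 and KCNN4. The genes described are the 12 with the largest smaller effect of the lines, among shared genes of at least 5 CPM in each line whose groups do not overlap. The condition on overlap removed none of the 625 genes shared upward or the 640 downward, so it gives no support beyond the calls. MMP15, a membrane-anchored matrix metalloproteinase (chromosome 16, 58025566 to 58046901, plus strand, GRCh38, GENCODE release 29), stood at 6.48 and 7.63 CPM in RKO controls and 18.7 and 18.8 CPM with overexpression, and at 24.5 and 22.8 CPM with shNT and 67.9 and 71.4 CPM with shCYP1B1. It rose by 1.41 on the log2 scale in RKO and 1.56 in SW480, and by 1.49 over both (SE 0.10, adjusted p = 0.00083). FSCN1, the actin-bundling protein fascin, stood at 108 and 101 CPM and 230 and 307 CPM in RKO, and at 126 and 129 CPM and 282 and 273 CPM in SW480, controls first. Its log2 fold changes were 1.36 in RKO, 1.13 in SW480 and 1.24 over both (SE 0.10, adjusted p = 0.00238). FHOD1, a formin that acts on actin filaments, went from 26.6 and 25.3 CPM to 49.99 and 60.4 CPM in RKO, and from 34.1 and 34.6 CPM to 60.6 and 64.7 CPM in SW480 (0.98 over both, SE 0.10, adjusted p = 0.00312). KCNN4, a calcium-activated potassium channel, rose by 0.91 in RKO, from 2.74 and 3.89 CPM to 7.03 and 5.44 CPM, and by 1.24 in SW480, from 27.1 and 26.7 CPM to 64.3 and 62.9 CPM.

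The other 8 of these rises ranged over genes of different roles. ZNF341, a zinc finger factor that activates STAT3 transcription, rose by 1.03 in RKO and 1.47 in SW480, and HIC1, a transcriptional repressor, by 1.01 and 1.22. TRIM3, a ubiquitin ligase, rose by 0.93 and 0.87, and PHETA1, a protein of endosomal trafficking, by 0.97 and 1.59. HMGCS1, which makes the HMG-CoA that enters cholesterol synthesis, rose by nearly the same amount in both lines, 0.90 and 0.89. DACT3, an antagonist of Dishevelled in the Wnt pathway, stood at 9.75 and 11.8 CPM and 20.96 and 19.0 CPM in RKO, and at 0.923 and 1.39 CPM and 16.3 and 16.6 CPM in SW480. Its change was larger in SW480 (3.82 against 0.89, adjusted p of the difference 2.03e-05), and its call over both lines (2.21, SE 0.56, adjusted p = 0.0315) ended without any single SW480 library, at adjusted p = 0.0723 to 0.12. LFNG, a glycosyltransferase that modifies Notch receptors, rose by 0.87 and 0.88, and NTNG2, a membrane-anchored netrin, by 0.98 and 1.88. Without RKO control 1, the RKO calls of LFNG (0.76, adjusted p = 0.0553) and NTNG2 (0.63, adjusted p = 0.0865) ended. The gene just outside these 12 had a smaller effect of 0.86, against 0.87 for the last one inside.

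The largest shared fall was that of ESRP1, a splicing regulator of epithelial cells. It stood at 7.67 and 7.31 CPM in RKO controls and 0.459 and 0.0299 CPM with overexpression, and at 20.7 and 21.97 CPM with shNT and 3.15 and 1.62 CPM with shCYP1B1. The log2 fold change was -4.89 in RKO, -3.16 in SW480 and -3.80 over both (SE 0.49, adjusted p = 0.00431). The RKO value rests on 16 and 1 counts and stood at -7.80 without overexpression library 1. SLC7A11, the cystine transporter subunit that feeds glutathione synthesis (chromosome 4, 138164097 to 138242349, minus strand), was at 203 and 222 CPM and 88.3 and 54.3 CPM in RKO, and at 28.4 and 37.3 CPM and 6.51 and 8.87 CPM in SW480. Its log2 fold change was -1.57 in RKO, -2.09 in SW480 and -1.82 over both (SE 0.20, adjusted p = 0.00312). SLC6A9, a glycine transporter, was at 51.6 and 49.1 CPM and 26.9 and 18 CPM in RKO, and at 43.0 and 46.1 CPM and 15.6 and 15.5 CPM in SW480 (-1.34 over both, SE 0.14, adjusted p = 0.00312). Both are transporters of amino acids used for glutathione.

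The other large falls were of genes of different roles. RYR2, a calcium release channel, fell (-1.65 in RKO and -1.44 in SW480) at levels of 1.68 to 10.5 CPM, and SLC22A15, an organic ion transporter, fell as well (-1.34 and -1.15). ARHGEF37, a guanine nucleotide exchange factor, had values of -1.24 and -2.52, the larger change being in SW480 (adjusted p of the difference 0.0142). Falls in both lines were also seen for N4BP2 (-1.09 and -1.71), ZDHHC21, a palmitoyltransferase (-1.01 and -1.21), and ZNF697, a zinc finger gene (-1.003 and -1.29). KCNK15, a potassium channel, had values of -1.26 and -1.22, and without RKO control 2 its RKO value was -1.02 (adjusted p = 0.0598). In PMAIP1 and SRD5A3 the overexpression libraries stood apart. PMAIP1, the pro-apoptotic NOXA, was at 51.4 and 59.7 CPM in RKO controls and at 34.6 and 11.9 CPM with overexpression, with an RKO value of -1.25 that became -2.22 without overexpression library 1 and -0.68 without library 2. Its call over both lines (-1.18, SE 0.28, adjusted p = 0.0255) ended without RKO control 2 or any single SW480 library, at adjusted p = 0.0561 to 0.0804, and its RKO call ended without either RKO control. SRD5A3, a reductase of dolichol synthesis, had an RKO value of -1.09, which became -1.65 and -0.69 without overexpression library 1 or 2, and its RKO call ended without control 1 (adjusted p = 0.0725) or control 2 (adjusted p = 0.055). The gene just outside the 12 had a smaller effect of 0.97, against 1.003 inside.

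The promoters of MMP15, the leading rise, and HMGCS1 are shown because both hold a CCAAT box, as do several of these genes. They are RefSeq promoters on GRCh38.p14 that span 250 bases before to 50 after the start, read along the gene, at chr16:58025504-58025803 (plus strand) and chr5:43313363-43313662 (minus strand). Capitals mark the CCAAT box, which reads ATTGG on this strand, 49 bases before the start of MMP15 and 155 and 100 bases before that of HMGCS1.
MMP15: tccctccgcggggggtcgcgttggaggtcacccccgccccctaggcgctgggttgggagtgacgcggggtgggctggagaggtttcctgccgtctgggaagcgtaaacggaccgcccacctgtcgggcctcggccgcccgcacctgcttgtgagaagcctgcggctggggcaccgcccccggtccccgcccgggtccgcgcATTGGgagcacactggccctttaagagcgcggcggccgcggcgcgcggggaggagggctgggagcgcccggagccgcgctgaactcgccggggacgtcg
HMGCS1: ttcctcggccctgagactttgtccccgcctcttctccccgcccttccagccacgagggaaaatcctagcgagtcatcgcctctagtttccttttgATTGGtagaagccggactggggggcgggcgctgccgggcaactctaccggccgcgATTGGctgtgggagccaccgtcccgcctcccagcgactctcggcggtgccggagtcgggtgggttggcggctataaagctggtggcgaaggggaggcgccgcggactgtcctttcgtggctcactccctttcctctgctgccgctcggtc

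Both strands of 11380 promoters of tested genes were searched for a set of motifs, and 36.3% held CCAAT. Of the 9 promoters found for the 12 leading rises, 6 held it (MMP15, PHETA1, DACT3, HMGCS1, LFNG and FHOD1), and of the 9 found for the 12 leading falls 0 did. A match is a description of these letters in this window, and the GC content of the MMP15 promoter was 75.3%.

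**Figure D2:**
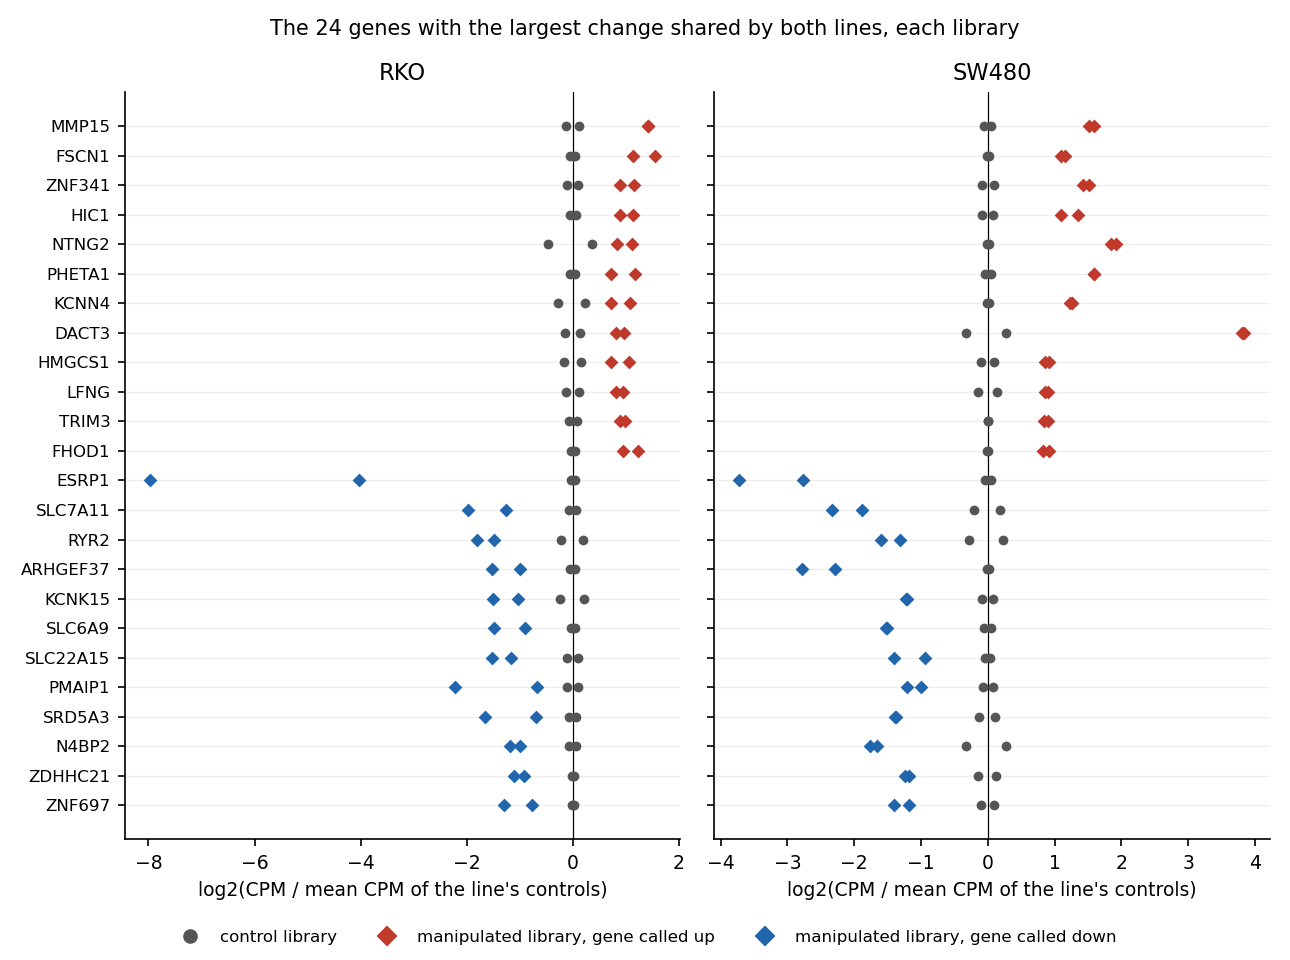
Log2 of CPM over the mean CPM of the line's own controls for the 12 genes upward and 12 downward with the largest shared change, in RKO (left) and SW480 (right, on another scale); each point is a library, grey for controls and red or blue for manipulated libraries. Control and manipulated libraries did not overlap for any of the 24 genes, as the choice of genes required, and the overexpression libraries lay far apart for ESRP1, PMAIP1 and SRD5A3.

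The genes with the smallest p over both lines were in part others. NIBAN2 rose from 167 and 160 CPM to 297 and 295 CPM in RKO and from 299 and 290 CPM to 532 and 517 CPM in SW480 (0.85 over both, SE 0.06, adjusted p = 0.00116). SLC38A1, a glutamine transporter, fell from 1155 and 1210.3 CPM to 692 and 687 CPM in RKO and from 466 and 503 CPM to 266 and 270 CPM in SW480 (-0.82, SE 0.06, adjusted p = 0.00126). In both genes the replicates lay close together and the change had nearly the same size in each line. BAZ2B, a bromodomain protein, and SLC23A2, a vitamin C transporter, fell over both lines (-0.91 and -0.93). LCN2, the siderophore-binding lipocalin, fell in SW480 (-2.14), from 67.1 and 62.3 CPM to 13.6 and 15.7 CPM, and in RKO (-2.79) on 33 and 29 counts against 7 and 2. PRR9 and CXCL14 were among those with the smallest p upward along with MMP15, but mainly through SW480. PRR9 went from 3.20 and 2.98 CPM to 113 and 109 CPM there and had 1 to 3 counts in each RKO library, with an RKO value of 0.88 (adjusted p = 0.593) and a difference between lines (adjusted p = 0.0245). CXCL14, a chemokine, went from 3.78 and 4.00 CPM to 41.6 and 41.5 CPM in SW480 and had 0 to 6 counts in the RKO libraries. Its RKO call on those counts (2.998, adjusted p = 0.0298) made it a shared gene, a status that ended without RKO control 2, overexpression library 2 or either shCYP1B1 library.

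Gene lists were described by the number of members called; a list was taken up where its share of calls over both lines in a direction was at least 2 times that of all genes (8.35% upward, 8.12% downward) or where it served as a check. Among heat shock proteins and cytosolic chaperones, of 37 tested, 14 rose over both lines, none fell, and 11 were shared (4.41% of all genes were). The median log2 fold change of the list was 0.27, against -0.01 over all genes. HSP90AA1, the stress-inducible HSP90, stood at 2176 and 2019 CPM and 3075 and 3914 CPM in RKO, and at 3896 and 3974 CPM and 5964 and 6049 CPM in SW480 (0.67 over both, SE 0.08, adjusted p = 0.00393). Its constitutive counterpart HSP90AB1 rose by 0.49, and the HSP90 partner PTGES3 (p23) by 0.58. HSPB1, the small heat shock protein HSP27, rose from 550 and 509 CPM to 764 and 781 CPM in RKO and from 1035 and 937 CPM to 1606 and 1599 CPM in SW480 (0.62 over both, SE 0.07, adjusted p = 0.00312). These 4 passed in every fit that left out a library. FKBP4, AHSA1, BAG3, DNAJA2, HSPA4, HSPA1A and UBB made up the rest, of which FKBP4 alone also passed in all 8 of those fits; HSPA1A has a near-identical copy among which reads may be split. The shared count was 8 without RKO control 1 or 2 and 5 to 7 without a SW480 library. The HSPB1 promoter (chr7:76302423-76302722, plus strand) is shown for its facing pair of heat shock element units, GAANNTTC in capitals, 182 bases before the start. The pair was in 4.55% of all promoters and in 2 of the 10 found for the shared chaperones, HSPB1 and HSPA1A.
HSPB1: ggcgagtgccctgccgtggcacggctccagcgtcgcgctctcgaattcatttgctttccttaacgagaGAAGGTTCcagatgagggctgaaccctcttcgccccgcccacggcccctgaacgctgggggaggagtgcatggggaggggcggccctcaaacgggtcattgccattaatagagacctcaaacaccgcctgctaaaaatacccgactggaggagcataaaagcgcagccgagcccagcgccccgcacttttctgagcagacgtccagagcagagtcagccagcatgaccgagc
In RKO 28 members were called up and 1 down, with a median of 0.45, and in SW480 15 up and 2 down, with a median of 0.15. Of all genes, 13.8% were called each way in RKO and 25.3% in SW480.

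In the cholesterol synthesis and sterol list, of 27 genes tested, 13 rose over both lines, none fell, 14 did not pass and 8 were shared, with a median of 0.41. In RKO 14 were called up and 1 down, with a median of 0.27, and in SW480 18 up and 3 down, with a median of 0.60. The shares over all genes were 13.8% each way in RKO and 25.3% in SW480. HMGCS1 stood at 39.8 and 31.9 CPM and 74.3 and 59.3 CPM in RKO, and at 20.9 and 24.1 CPM and 42.4 and 40.5 CPM in SW480 (0.89 over both, SE 0.11, adjusted p = 0.00425). SQLE, the squalene epoxidase, rose from 82.1 and 81.3 CPM to 133 and 119 CPM in RKO and from 56.8 and 56.3 CPM to 124 and 127 CPM in SW480, and IDI1, the isopentenyl diphosphate isomerase, rose by 0.60 and 1.13. Both changes were larger in SW480 (adjusted p of the difference 0.00227 and 0.0288). MVD, EBP, NSDHL, DHCR7 and INSIG1, the last a sterol sensor, were the other shared members, and none of these 5 stayed shared in all 8 fits that left out a library. The shared count was 5 without RKO control 2 and 4 to 7 without a SW480 library, and 13 without overexpression library 2. Of the 7 promoters found for the shared members, 6 held a CCAAT box, as shown above for HMGCS1, and 0 held the sterol element TCACCCCAC, which was in 0.387% of all promoters.

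Fatty acid synthesis followed with 5 of 24 genes up, all shared, and FADS1 called down over both lines through SW480 (158 and 158 CPM against 88.6 and 85.5 CPM; at most 0.292 CPM in RKO). The list's median was 0.00. SCD, the stearoyl-CoA desaturase, rose from 685 and 639 CPM to 809 and 910 CPM in RKO and from 478 and 498 CPM to 623 and 632 CPM in SW480 (0.37 over both, SE 0.07, adjusted p = 0.0102), and FASN and AGPAT2 were also shared, though neither call over both lines held without RKO control 2 or any single SW480 library, and neither was shared with GC content and length modelled. SCD5 and the elongase ELOVL6 rose by 0.94 and 0.43, calls that ended without any single SW480 library, at adjusted p = 0.0579 to 0.0821 for SCD5 and 0.0612 to 0.0848 for ELOVL6. The shared count was 2 without RKO control 1 or 2 and 1 without any SW480 library.

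In the ATF4 and amino acid list, of 40 genes tested, 8 fell over both lines, all 8 shared (4.52% of all genes were), 1 rose, and the median was -0.32. SLC7A5, the large neutral amino acid transporter LAT1, stood at 1065 and 1036 CPM and 716 and 639.9 CPM in RKO, and at 1341 and 1323 CPM and 729 and 744 CPM in SW480 (-0.74 over both, SE 0.07, adjusted p = 0.00312). SLC7A1, a cationic amino acid transporter, fell in RKO (-0.95) and SW480 (-0.45), a larger change in RKO (adjusted p of the difference 0.00082). ATF5, a transcription factor of the same response, fell likewise (-0.70 and -0.45). The tRNA ligases WARS1 and MARS1, and SHMT2 and PSPH of serine and glycine metabolism, completed the shared members with SLC7A11; the SHMT2 and PSPH calls ended without either RKO control or any single SW480 library. In RKO 29 members were called down, with a median of -0.77, and 13.8% of all genes were. In SW480 9 of the 40 were called down and 8 up, with a median of 0.10, while 25.3% of all genes were called each way there; the difference between lines over the list was not tested. The shared count was 6 without either RKO control or any SW480 library, and 12 without overexpression library 2. The SLC7A1 promoter (chr13:29595639-29595938, minus strand) is shown for a C/EBP-ATF element, TGATGNAAN in capitals, 8 bases after the start; the element was in 1.73% of all promoters and in 2 of the 5 found for the shared members, SLC7A1 and MARS1.
SLC7A1: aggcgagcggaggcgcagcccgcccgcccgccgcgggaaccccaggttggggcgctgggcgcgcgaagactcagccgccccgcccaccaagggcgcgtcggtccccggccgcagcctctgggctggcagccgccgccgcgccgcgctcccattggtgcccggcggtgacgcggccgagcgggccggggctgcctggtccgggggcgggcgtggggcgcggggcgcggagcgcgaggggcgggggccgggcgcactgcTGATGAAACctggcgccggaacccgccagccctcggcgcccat

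Of 38 DNA damage repair genes tested, 12 fell over both lines, none rose, 26 did not pass and 9 were shared, with a median of -0.26. In RKO 12 were called down and 4 up, with a median of -0.03, and in SW480 26 down and 4 up, with a median of -0.48. Over all genes 13.8% were called each way in RKO and 25.3% in SW480. RAD50, a subunit of the complex that holds broken DNA ends, stood at 92.6 and 95.3 CPM and 65.5 and 61.2 CPM in RKO, and at 52.1 and 53.3 CPM and 35.3 and 36.8 CPM in SW480 (-0.56 over both, SE 0.07, adjusted p = 0.00431). BRCA2, which acts in homologous recombination, was at 44.2 and 45.2 CPM and 24.6 and 29.5 CPM in RKO, and at 22.7 and 24.9 CPM and 9.26 and 7.998 CPM in SW480, a larger fall in SW480 (-1.47 against -0.73, adjusted p of the difference 0.00716). BRIP1, a helicase partner of BRCA1, and BRCA1 fell over both lines (-0.90 and -0.63). NBN, CHEK1, RAD51C, RAD52 and BLM were the other shared members, and the shared call of each ended without RKO control 2 or any single SW480 library. RAD50 and BRCA2 passed whichever library was left out, but BRIP1 and BRCA1 were no longer called in RKO without RKO control 2, and BRCA1 was at adjusted p = 0.0519 over both lines without shCYP1B1 library 1. The shared count was 5 and 2 without RKO control 1 or 2 and 3 to 4 without a SW480 library. The median GC content of the list was 43.1%, against 49.4% over all genes; with GC content and length modelled, 7 of these 9 remained shared.

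**Figure D3:**
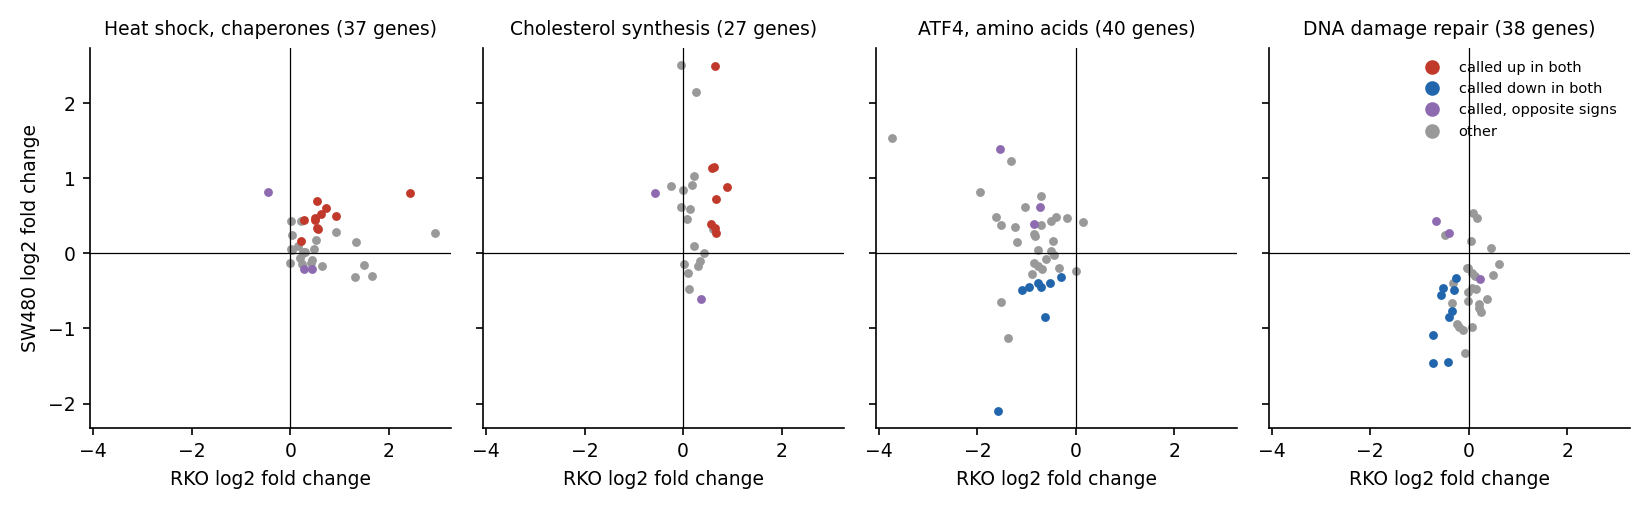
Log2 fold change in RKO (horizontal) and SW480 (vertical) of every tested member of 4 lists; each point is a gene, red and blue where called in both lines the same way, purple where called with opposite signs, grey otherwise. Chaperones spread along the RKO axis, ATF4 genes lie left of 0 in RKO and on both sides of 0 in SW480, and repair genes lie mostly lower in SW480.

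Among epithelial junction and identity genes, 8 of 28 fell over both lines and 5 were shared, 1 rose, and the median was 0.16, opposite in sign to the falls. Besides ESRP1, DSG2, a desmosomal cadherin, fell from 174 and 169 CPM to 127 and 127 CPM in RKO and from 62.5 and 62.9 CPM to 40.9 and 40.5 CPM in SW480 (-0.53 over both, SE 0.07, adjusted p = 0.00506). OCLN, the tight junction protein occludin (-0.84), and DSP, desmoplakin (-0.50), fell over both lines, and all 4 passed whichever library was left out. CLDN1 was shared on 10 or fewer counts in each RKO library. Of 30 mesenchymal and matrix genes, 5 rose, 1 fell and 4 were shared upward, with a median of 0.40. In RKO 5 were called up and 7 down, with a median of 0.08 (13.8% of all genes each way). In SW480 19 were called up and 2 down, with a median of 0.92 (25.3% of all genes each way), and 5 genes were called with opposite signs. SPARC, a secreted matrix protein, went from 113 and 114 CPM to 359 and 371 CPM in SW480, but stood at 0.555 to 1.75 CPM in RKO, and its RKO call ended without RKO control 2. LOXL2, a lysyl oxidase, likewise stood at 54.1 and 52.6 CPM and 189 and 195 CPM in SW480 and at 0.81 to 1.41 CPM in RKO, a larger change in SW480 (1.85 against 0.70, adjusted p of the difference 0.000979), and its shared call ended without either RKO control or overexpression library 1. The shared count of the list was 0 without RKO control 2, 2 without any SW480 library and 1 with GC content and length modelled. The colorectal markers gave KRT8 alone as shared, up by 0.72 in RKO and 0.26 in SW480 (adjusted p of the difference 0.00316), a shared call that ended without shNT library 2. Of the 8 of these markers tested, 1 was called up and 2 down over both lines, with a median of -0.13. The falls were of KRT19, a keratin, from 489 and 456 CPM to 258 and 241 CPM in SW480, and VIL1, the actin-binding protein villin, from 12.1 and 10.9 CPM to 1.497 and 1.02 CPM there; in RKO both stood at or below 1.03 CPM and neither was called. The KRT19 call over both lines ended without any single SW480 library. EPCAM, an epithelial adhesion molecule, went from 131 and 131 CPM to 22.5 and 23.3 CPM in SW480 and was at adjusted p = 0.051 over both lines.

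Redox and metal genes moved in both directions. Of 25 ferroptosis suppressors, 6 rose and 2 fell over both lines, with 5 and 2 shared and a median of 0.00; the falls were SLC7A11 and HSPA5, the chaperone of the endoplasmic reticulum (-0.40, SE 0.06, adjusted p = 0.00644). PRDX6, a peroxiredoxin, rose by 0.42, a call that ended without RKO control 2, when 3 suppressors were shared upward. Of 33 NRF2 targets, 7 rose and 1 fell, SLC7A11 again, with 6 shared upward and a median of 0.26. CBR1, a carbonyl reductase, rose from 77.7 and 79.8 CPM to 116 and 120 CPM in RKO and from 110 and 102 CPM to 134 and 133 CPM in SW480 (0.46 over both, SE 0.08, adjusted p = 0.00963). HMOX1, heme oxygenase 1, rose by 0.59, with its RKO call ending without RKO control 2; the shared count of the NRF2 list was then 3, and 3 to 4 without a SW480 library. Of 13 metallothioneins and metal transporters, 3 rose and 3 fell. MT2A, a metallothionein, rose from 208 and 181 CPM to 338 and 292 CPM in RKO and from 147 and 132 CPM to 204 and 224 CPM in SW480 (0.66 over both, SE 0.09, adjusted p = 0.00459), although metallothionein copies are alike enough that reads may be shared among them. SLC39A14, a zinc and iron importer, fell by 0.44. Of this list 3 were shared upward and 2 downward, and 1 each way without RKO control 2.

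Among cell cycle genes, the G2/M and G1 lists had a larger part shared upward than the 4.41% of all genes. The S phase list had 1 shared gene. Of 46 G2/M genes, 9 rose, 1 fell and 6 were shared upward, with a median of 0.07 and 4 called with opposite signs. In RKO 18 were called up and 3 down, with a median of 0.17. In SW480 10 were called up and 11 down, with a median of -0.03. CDC25B, the phosphatase that activates mitotic CDK1, led the shared members. It went from 56.4 and 55.3 CPM to 71.0 and 94.1 CPM in RKO and from 410 and 398 CPM to 579 and 600 CPM in SW480 (0.55 over both, SE 0.09, adjusted p = 0.00907). The shared G2/M count was 3 and 4 without RKO control 1 or 2 and 1 to 3 without a SW480 library. Of 20 G1 genes, 5 rose and 2 fell. CCND3, a D-type cyclin, rose from 73.5 and 73.6 CPM to 97.4 and 106 CPM in RKO and from 98.4 and 107 CPM to 175 and 174 CPM in SW480 (0.61 over both, SE 0.09, adjusted p = 0.00551), and CDKN1C, the inhibitor p57, rose by 0.93, its RKO call ending without RKO control 2. The shared G1 count of 4 upward was 2 and 1 without RKO control 1 or 2 and 2 without any SW480 library. S phase and DNA replication genes had 1 of 45 called over both lines and 18 called with opposite signs, and oxidative phosphorylation subunits 1 of 55 and 11. Over all genes 3.45% were up in RKO and down in SW480, and 3.14% the other way. Of the S phase genes 22 were called up in RKO and 34 down in SW480 (medians 0.34 and -0.64). Of the oxidative phosphorylation genes 34 were called up in RKO and 15 down in SW480 (medians 0.27 and -0.06). Over all genes 13.8% were called up in RKO and 25.3% down in SW480. Of 30 apoptosis regulators, 5 rose and 5 fell: BOK rose by 0.48, BAK1 by 0.54, and the inhibitors XIAP and BIRC3 fell (-0.50 and -0.99). The other shared falls were of PMAIP1, the pro-apoptotic NOXA (-1.18), and TNFRSF10A, so the falls were not confined to inhibitors. The shared TNFRSF10A call ended without RKO control 1 or any single SW480 library. The shared BAK1 call ended without shCYP1B1 library 1, that of XIAP without shNT library 2, and that of BIRC3 in RKO without either RKO control. The shared BOK call ended with GC content and length modelled (adjusted p = 0.0969 in RKO). The shared counts of 2 up and 4 down were 1 to 2 each way without a SW480 library, and 1 down without RKO control 1.

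The next lists, of signalling and innate immune genes among others, had at most 4 shared genes in a direction with all libraries kept. Of 28 NF-kB genes, 8 fell, none rose and 3 were shared, with a median of -0.42. LIF, an interleukin 6 family cytokine, fell from 387 and 370 CPM to 262 and 204 CPM in RKO and from 78.4 and 78.1 CPM to 44.0 and 44.6 CPM in SW480 (-0.76 over both, SE 0.09, adjusted p = 0.00388), and REL, an NF-kB subunit, fell by 0.95, a shared call that ended without RKO control 2 or shNT library 2. CXCL1, a neutrophil chemokine, was called over both lines at -3.49 through SW480 alone (41.6 and 37.5 CPM against 1.56 and 3.34 CPM), with at most 0.143 CPM in RKO and an effect that differed between lines (adjusted p = 0.00524); its call over both lines ended without any single SW480 library. The shared NF-kB count was 1 without RKO control 2 and 5 without overexpression library 1. Of 24 nucleic acid sensing genes, 4 fell and 1 rose, and 2 were shared downward. TRIM25, the ubiquitin ligase that activates RIG-I, fell from 400 and 401 CPM to 196 and 159 CPM in RKO and from 166 and 177 CPM to 100 and 100 CPM in SW480, a larger fall in RKO (-1.18 against -0.77, adjusted p of the difference 0.0283). Of 38 interferon-stimulated genes, 4 rose and 4 fell, with a median of -0.07. These shares, 10.5% each way, lay near the 8.35% upward and 8.12% downward of all genes. BST2, tetherin, rose from 223 and 199 CPM to 352 and 346 CPM in RKO and from 73.3 and 68.2 CPM to 116 and 108 CPM in SW480 (0.69 over both, SE 0.07, adjusted p = 0.00312), while PARP9 fell by 0.73, its RKO call ending without RKO control 2. The shared counts were 4 up and 3 down, 2 up and 1 down without RKO control 1, 2 up and 0 down without control 2, and 1 up and 1 to 2 down without a SW480 library. Of 17 small RNA processing genes, 4 fell and 1 rose. TNRC6A, the GW182 partner of Argonaute, fell from 58.7 and 60.3 CPM to 33.2 and 42.4 CPM in RKO and from 73.6 and 75.3 CPM to 53.3 and 53.6 CPM in SW480 (-0.57 over both, SE 0.10, adjusted p = 0.00953), and 3 were shared downward, 1 to 2 without a SW480 library and 6 without overexpression library 2.

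The remaining lists were TGF-beta and the aryl hydrocarbon receptor axis. By line, TGF-beta genes were called 8 up and 8 down in RKO (median -0.03). In SW480 14 were called up and 7 down (median 0.59), and 5 genes had calls of opposite sign in the lines. Of 27 TGF-beta genes, 8 rose and 3 fell, with 6 and 3 shared, but the shared counts were 2 and 1 upward without RKO control 1 or 2 and at most 1 without a SW480 library. ID3, a target of the BMP branch, rose by 0.81, from 54.3 and 52.6 CPM to 73.1 and 76.6 CPM in RKO and from 1.82 and 2.03 CPM to 4.55 and 4.69 CPM in SW480, the change being larger in SW480 (adjusted p of the difference 0.00345) and the call over both lines ending without shNT library 2 (adjusted p = 0.0581) and with GC content and length modelled (adjusted p = 0.0517). Of 12 genes of the receptor axis, HSP90AB1 rose, and AHR, the receptor, and TIPARP, its feedback target, fell. AHR stood at 11.8 and 11.3 CPM and 8.52 and 7.14 CPM in RKO, and at 47.2 and 49.0 CPM and 37.4 and 40.1 CPM in SW480 (-0.43 over both, SE 0.11, adjusted p = 0.0312). The AHR and TIPARP calls each ended without either RKO control or any single SW480 library, at adjusted p = 0.0664 to 0.0968 for AHR and 0.062 to 0.0968 for TIPARP, and with GC content and length modelled (0.135 and 0.0709). CYP1A1, the best known target of the receptor, was not called over both lines (-0.67, adjusted p = 0.135).

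**Figure D4:**
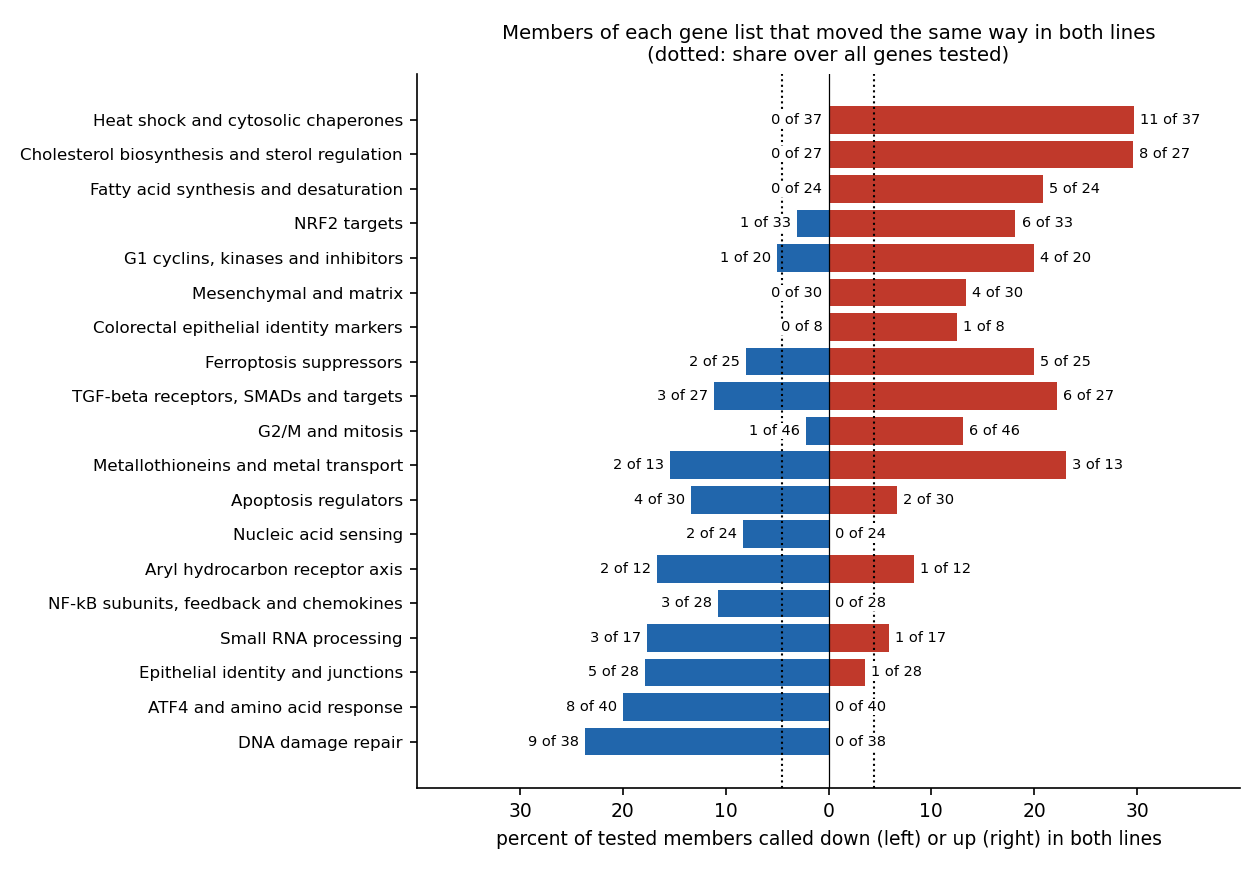
Percent of the tested members of each list called up (right, red) or down (left, blue) in both lines and over both, with counts beside the bars and dotted lines at the share over all genes (4.41% up, 4.52% down). Chaperones and cholesterol synthesis have the longest bars upward and DNA damage repair and the ATF4 list the longest downward.

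Shared genes differed from the rest in base composition and length. The median GC content of the gene model was 57.9% for genes shared upward and 42.3% for those shared downward, against 49.4% over all genes tested, and the median length was 2937, 6311 and 3949 bp. The genes called in opposite directions split the same way by their RKO direction, at 55.5% and 44.4% GC. Across genes, the Spearman correlation of the log2 ratio to the controls with GC content was 0.306 and 0.255 for the overexpression libraries and 0.142 and 0.128 for the shCYP1B1 libraries; between the control libraries of a line it had a size of 0.152 in RKO and 0.169 in SW480. With GC content and length as offsets per library, in a fit added after the data were seen, 534 genes were shared upward and 450 downward. Of these, 367 and 356 were among those above. The correlation of the change over both lines with GC content went from 0.26 to 0.01, as the offsets are built to remove that trend. All 24 genes named for their shared size remained shared in that fit, as did 9 of the 11 shared chaperones (not HSPA1A and UBB), 7 of the 8 shared cholesterol genes (not DHCR7) and 6 of the 8 of the ATF4 list; NIBAN2 and the tRNA ligases WARS1 and MARS1 had no GC value and could not be fitted.

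**Figure D5:**
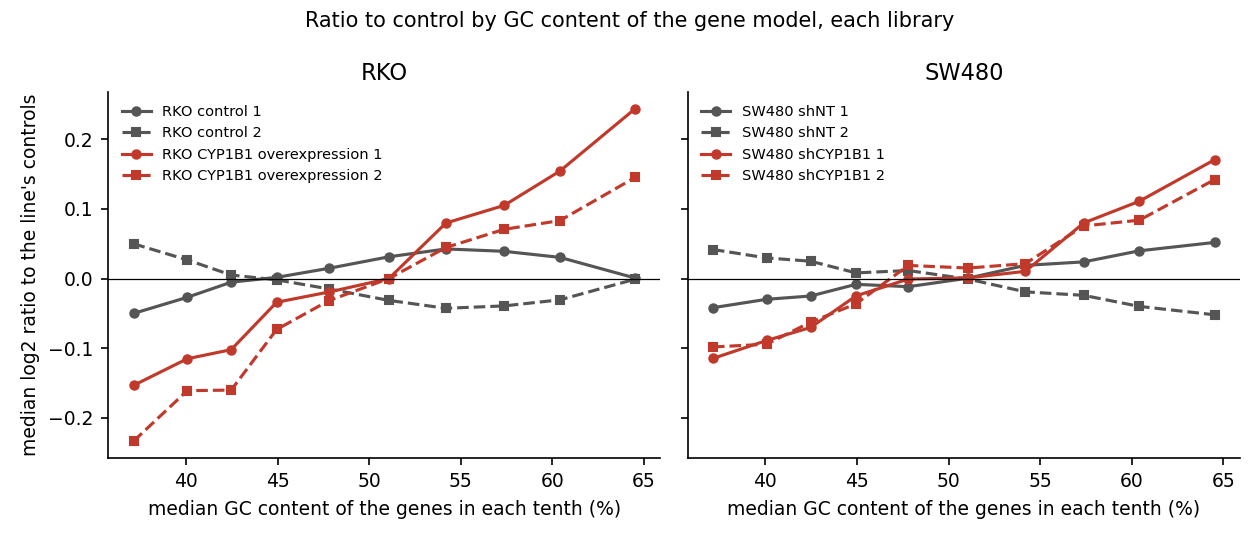
Median log2 ratio of each library to its line's controls (for a control, to the other control) over genes in 10 bins of equal gene number by GC content, plotted at the median GC content of each bin, in RKO (left) and SW480 (right). Grey lines are controls, which mirror each other by construction, and red lines are manipulated libraries, which rise with GC content in both lines.

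As the contrast, genes called in both lines with opposite signs followed the manipulation of CYP1B1 or ran against it. After CYP1B1, CHRNB2, an acetylcholine receptor subunit, and DSC2, a desmosomal cadherin, had the largest smaller effect among genes up in RKO and down in SW480. CHRNB2 had 4 and 3 counts in RKO controls and 15 and 15 with overexpression, and went from 2.83 and 3.85 CPM to 0.306 and 0.361 CPM in SW480. DSC2 had 37 counts in overexpression library 2 and 1 to 4 in the other RKO libraries, so its RKO call rests on a single library. In the other direction, TSLP, an epithelial cytokine, fell from 29.6 and 35.3 CPM to 11.04 and 1.43 CPM in RKO and rose from 1.70 and 1.94 CPM to 9.01 and 10.7 CPM in SW480. IL21R and UNC79 had at most 17 and 10 counts in each RKO library. The RKO calls of CHRNB2 and UNC79 ended in all 8 fits that left out a library, that of IL21R in 7 and that of DSC2 in 7, and the TSLP call in RKO ended without RKO control 2. In SW480 the TSLP call ended without either shNT library (adjusted p = 0.0645 and 0.0541), and the DSC2 and UNC79 calls ended without any single SW480 library. None of these 6 genes was called over both lines, where their adjusted p-values ran from 0.28 (CYP1B1) to 0.962 (TSLP).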

How the data were processed

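RNA was sequenced in 8 libraries of 2 cell lines, made with a stranded mRNA kit per the labels' protocols. The authors deposited whole-number read counts per gene and, for the same genes, FPKM, which equal the count divided by a gene length and the library total. The submitters' processing notes name GRCh38.p13. Not given in the sources used here are the aligner, counter, annotation and strand setting, so reads of genes that overlap, antisense pairs included, may be mixed. All tests start from the deposited counts; FPKM served an alternative.

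Genes were filtered with filterByExpr (minimum count 10, minimum total 15), scaled with TMM and fitted in edgeR 4.0.16 (R 4.3.3) by quasi-likelihood. The main model held arm and cell line over all 8 libraries (5 residual degrees of freedom). A model with 1 coefficient per group (4 residual degrees of freedom) gave the change in each line and its difference between lines. Adjusted p-values are Benjamini-Hochberg over all 14157 genes, called at 0.05. Permuting libraries within lines gives at the least p = 0.0556, and permutation tests were therefore left out. The replicate numbers did not pair libraries: deviations of same-numbered libraries correlated at -0.01 in both lines. The script was tested on simulated counts.

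Named genes are CYP1B1; the 12 each way with the largest shared effect by the rule in the text; the 4 each way with the smallest p; up to 4 called members of each list described, by p; and the 3 each way with the largest opposite effects. Other members are named to complete a count, chosen after their values were seen. A result on 1 member of the cholesterol list is not reported here. The members and lists were chosen with earlier results of these data known. GC content came from GENCODE release 29 (97.3% of genes matched by symbol), and promoters from RefSeq on GRCh38.p14.

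The alternatives tried were scaling by RLE or by library size alone, no filter, genes of at least 1 CPM in 4 or more libraries, DESeq2 1.42.0, limma 3.58.1 on log2 FPKM with a pseudocount of 1 or 0.1, a test against a fold of 1.5, the mean of the line contrasts, each line alone, a replicate block, each library left out, and, chosen after seeing the data, offsets for GC content and length.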

Additional observations from a re-analysis of the deposited data

Results flagged for a closer look

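Of the genes named in the text, 113 were checked for a difference between the lines. For 31 of them, the manipulated minus control effect differed in edgeR (RKO minus SW480 in log2 fold change, adjusted p at most 0.0413). Among genes that moved the same way, the effect was larger in SW480 for DACT3 (-2.94), INSIG1 (-1.85), LOXL2 (-1.15), SCD5 (-1.07), ID3 (-0.78), PHETA1 (-0.62), IDI1 (-0.54), SQLE (-0.53) and CCND3 (-0.30), which rose, and for ARHGEF37 (1.28), NBN (1.01), BRCA2 (0.74), PARP9 (0.46) and BRCA1 (0.45), which fell. It was larger in RKO for HSPA1A (1.62), KRT8 (0.45) and DHCR7 (0.40), which rose, and for WARS1 (-0.62), SLC7A1 (-0.51) and TRIM25 (-0.40), which fell. The genes called with opposite signs were CYP1B1 (11.86), CHRNB2 (5.33), DSC2 (4.60), IL21R (-6.04), UNC79 (-5.16) and TSLP (-4.81). In CXCL1 (5.85), PRR9 (-4.29), EPCAM (2.51) and CD68 (-2.06) SW480 alone passed, and in CYP1A1 (-1.30) RKO alone.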

How the results depend on the processing

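Higher and lower genes over both lines numbered 1182 and 1150. RLE scaling, library size alone, no filter on low counts, 1 CPM in 4 libraries and the GC content and length offsets kept every such count, shared and opposite counts included, within 1.5 times. DESeq2 called 1935 higher and 1770 lower. Limma on log2(FPKM + 1) called 729 higher, with a pseudocount of 0.1 777, and without the filter 612, where 288 genes were down in RKO and up in SW480. The mean of the line contrasts called 2966 and 3062, since it does not count a difference between lines as spread. Against a fold change of 1.5, 39 and 17 passed over both lines, 2 and 4 were shared, and 1 and 4 were opposite. With each line fitted alone, 409 were shared upward. The replicate block left 7 and 1 over both lines and 4 and 1 shared, a status that needs a call over both lines. With that block 426 genes were up in RKO and down in SW480 and 432 the other way. The numbers do not pair libraries, and the block takes residual degrees of freedom. Why the counts over both lines fell that far was not tested. With 1 library left out, higher genes ranged from 274 to 1556, lower from 255 to 1431, shared upward from 218 to 848, shared downward from 225 to 870, up in RKO and down in SW480 from 216 to 996, and the other way from 208 to 941; the remaining library of that group is assumed to vary like the others. The VLDLR value turned to -1.09 with the mean of the line contrasts, and with offsets RPLP2 turned to -0.029 and SMAD2 to 0.037. With 2 libraries a group, small changes and genes of few counts are the least certain.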

Other observations

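Mitochondrial ribosomal proteins had 8 of 56 genes higher over both lines and 7 shared, with 0 lower, a median log2 fold change of 0.08, and 8 called with opposite signs; 3 were shared without either RKO control and 1 to 3 without a SW480 library, and 1 of the 7 remained shared with GC content and length modelled. Cytosolic ribosomal proteins had 4 of 73 higher and 2 shared, 0 shared without either RKO control or any SW480 library, and 19 without overexpression library 2. Wnt and beta-catenin genes had 4 of 31 higher and 5 lower but 1 shared each way, and YAP and TEAD targets 2 of 25 lower, with 8 called with opposite signs. Of all genes tested, 8.35% were higher and 8.12% lower over both lines, and 4.41% were shared upward and 4.52% downward. Opposite calls covered 3.45% (up in RKO) and 3.14% (up in SW480). The cytosolic ribosomal list (5.48% higher) and the YAP list (8.0% lower) thus lay below the shares over all genes. Ribosome biogenesis had 5 of 39 lower, all shared, 2 and 1 without RKO control 1 or 2 and 1 without any SW480 library, and 3 remained shared with GC content and length modelled.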
